A study of Mus musculus with 18 samples.

Results

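Cultured mouse alveolar type 2 cells given an agonist of the receptor Fzd5 were compared with cells left without CHIR99201 for 24 h. The comparison takes 6 of the 18 RNA sequencing libraries of the series, chosen by their titles: 3 of the FZD5 agonist and 3 of the 24 h withdrawal. Lung cells labelled alveolar type 2 had been grown for 19 days with CHIR99201, named a Wnt agonist in the series design and called CHIR here. All groups, controls included, also list LGK974, which inhibits porcupine, the enzyme cells need to secrete Wnt ligands. In the first group CHIR was taken away and the Fzd5 agonist given in its place, with LGK974. In the second CHIR was taken away for 24 h with LGK974 and nothing was given in its place. Treatments lasted 8 to 12 h according to the labels, which do not give the time since CHIR removal for the agonist cells. The effect of the agonist and of a different time without CHIR therefore cannot be told apart. Nothing in the labels says that replicate libraries are from different cultures or mice, so the p-values here cover the spread between libraries, which may be technical. The other 4 groups, of 3 libraries each, were cells with CHIR, cells given Wnt, cells given an Fzd6 agonist and cells 48 h after CHIR removal.

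Frizzled proteins are the cell surface receptors of Wnt ligands. When a ligand joins a Frizzled to the co-receptors Lrp5 or Lrp6, the complex that marks beta-catenin for destruction is held back, and beta-catenin enters the nucleus and works with TCF/LEF factors on target genes such as Axin2. In the lung, Wnt signalling is known to keep alveolar type 2 cells, the surfactant-making stem cells of the alveolus, from becoming the thin type 1 cells of gas exchange.

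The FZD5 agonist libraries held 35005505, 47353597 and 37292440 gene counts and the 24 h libraries 34811948, 31509607 and 36495215. The library 24 h withdrawal 2 stood apart from the other 5. It had counts in 16846 genes, against 20547 to 21395 in the other 5, and 31.3% of its reads lay outside gene counts, against 14.3% to 15.5%. Mitochondrially encoded genes took 4.13% of its counts, against 0.445% to 0.652%, and the nuclear RNAs Malat1, Neat1 and Gm26917 10.8%. Xist, the RNA of the inactive X chromosome in female cells, had 4 counts in it, against 251 to 514. Scgb1a1, the secretoglobin of airway club cells, was at 0.136, 0.189 and 0.266 CPM (counts relative to library sizes scaled by the TMM method) with the FZD5 agonist, against 0.612, 38.6 and 0.105 CPM in the 24 h libraries. Where levels per library are given, they are therefore shown for all 6, and the test is given with this library and without it. The surfactant gene Sftpc, which defines alveolar type 2 cells, took 3.95% to 5.63% of the counts of the 3 agonist libraries, against 4.07% to 4.30% in 24 h withdrawal 1 and 3 and 13.0% in 24 h withdrawal 2.

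With all 3 libraries on each side, in a fit of all 18 libraries, 1 of 16497 genes tested passed (0.00606%). This gene was Cxcl5, a chemokine that attracts neutrophils (plus strand of chromosome 5, 90759360 to 90761624, GRCm38 with GENCODE M21 as for all gene positions here). It rose to 401, 333 and 353 CPM with the FZD5 agonist, against 118, 90.8 and 129 CPM in the 24 h libraries. The lowest agonist library stood above the highest 24 h library (log2 change 1.69, SE 0.23, edgeR adjusted p = 0.0299). No gene fell, although 2897 genes had an unadjusted p under 0.05 by the quasi-likelihood test of edgeR, and DESeq2 called 29 genes higher and 123 lower on the same libraries. The libraries of both groups did not overlap for 3262 genes (19.8%). The single call was lost when 24 h withdrawal 1 or any of the 3 agonist libraries was left out (0 genes called in each case), and 1139 genes were called, 1085 of them lower, without 24 h withdrawal 3, when 24 h withdrawal 2 was 1 of the 2 remaining. Without 24 h withdrawal 2, with the other 17 libraries kept, Cxcl5, Cd177 and Cfb passed (0.0177%).

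Without 24 h withdrawal 2, 738 of 17433 genes passed (4.23%), 414 of them higher (2.37%) and 324 lower (1.86%) with the FZD5 agonist. These counts come from a fit of 14 libraries, which also leaves out CHIR 1, CHIR 3 and FZD6 agonist 1, libraries of other groups that stood apart from the rest. Log2 fold changes (log2 change in brackets), standard errors (SE) and adjusted p below are from this fit unless the 18-library fit is named. The number of calls depended on which libraries shared the estimate of spread. The fit of 17 libraries called 3 genes and that of 14 called 738, with the same 5 libraries compared. A fit of those 5 libraries alone called 25 genes higher and 12 lower (0.24%), 36 of which were among the 738. Leaving out 24 h withdrawal 1 as well gave 94 calls and leaving out 24 h withdrawal 3 gave 360, each time with 1 library left for 24 h. Of 82 genes that met the rule for naming and were called, 19 also passed in the 5-library fit and 24 kept their call with any 1 of the 5 libraries left out, while 56 lost it without 24 h withdrawal 1 and 38 without 24 h withdrawal 3. Another scaling of the libraries moved the balance, since with upper-quartile factors 349 genes were higher and 471 lower. The libraries of both groups did not overlap for 5392 genes (30.9%), and the median log2 fold change of all genes was 0.01.

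**Figure D1:**
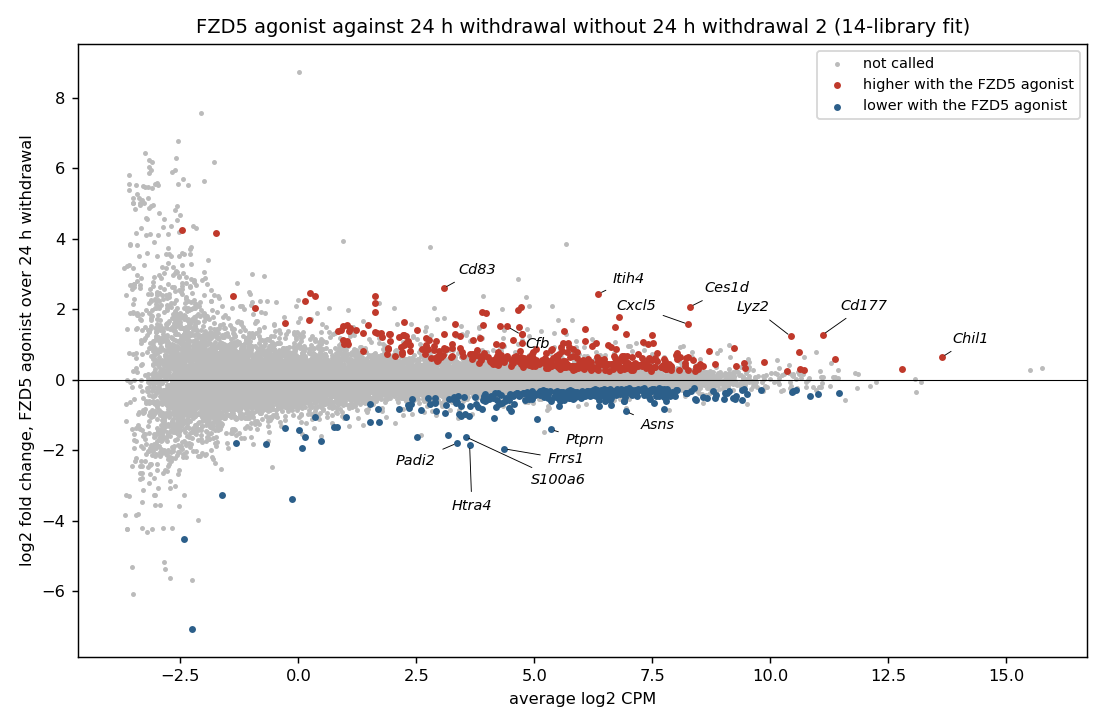
Log2 fold change of each of the 17433 genes tested (vertical axis, FZD5 agonist over 24 h withdrawal, 14-library fit) against its average log2 CPM (horizontal axis). The 414 genes called higher are red, the 324 called lower are blue and the rest are grey. Itih4 and Cxcl5 lie high at well-measured levels and Frrs1 lies low.

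The receptor Fzd5 itself and the related receptor Fzd7 were higher with the FZD5 agonist, and of the Wnt target genes Sp5 rose and Ccnd1 fell while Axin2 did not pass. Fzd5 (minus strand of chromosome 1, 64730558 to 64737751) was at 14.2, 15.8 and 11.6 CPM with the FZD5 agonist, against 8.93, 10.4 and 8.74 CPM in the 24 h libraries. All 3 agonist libraries stood above all 3 of 24 h (log2 change 0.67, SE 0.15, edgeR adjusted p = 0.0229). Fzd7 was at 111, 127 and 104 CPM, against 89.6, 3.73 and 80.3 CPM after 24 h, and 24 h withdrawal 2 was far below the other 5 (log2 change 0.44, SE 0.10, edgeR adjusted p = 0.0218). Fzd6, the target of the other agonist of the series, was at 79.3, 75.2 and 79.3 CPM, against 65.3, 12.5 and 76.3 CPM after 24 h, and showed no call (log2 change 0.16, SE 0.09, edgeR adjusted p = 0.37). Of 15 tested Wnt and R-spondin receptors 2 rose and 0 fell, against 2.37% and 1.86% of all genes, with a median log2 fold change of 0.17. Fzd5 and Fzd7 no longer passed without 24 h withdrawal 1 (edgeR adjusted p of 0.0824 to 0.155). Fzd5 and Fzd7 lost the call without 24 h withdrawal 3 (edgeR adjusted p of 0.108 to 0.146). Fzd5 missed the threshold without FZD5 agonist 2 (edgeR adjusted p = 0.0534).

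Sp5, a transcription factor that canonical Wnt signalling induces in many tissues (plus strand of chromosome 2, 70474923 to 70477729), was at 86.4, 112 and 97.4 CPM with the FZD5 agonist, against 75.7, 16.2 and 75.9 CPM in the 24 h libraries. The agonist libraries stood above all 24 h libraries, with 24 h withdrawal 2 the lowest (log2 change 0.40, SE 0.09, edgeR adjusted p = 0.0272). Ccnd1, which encodes the G1 cyclin D1, was at 83.3, 107 and 99.8 CPM, against 167, 51.2 and 129 CPM after 24 h. It was lower than in 24 h withdrawal 1 and 3 but higher than in 24 h withdrawal 2 (log2 change -0.59, SE 0.12, edgeR adjusted p = 0.0168). Sp5 and Ccnd1 no longer passed without 24 h withdrawal 1 (edgeR adjusted p of 0.182 to 0.24). Sp5 lost the call without 24 h withdrawal 3 (edgeR adjusted p = 0.111). Sp5 missed the threshold without FZD5 agonist 2 (edgeR adjusted p = 0.0534). Axin2, a scaffold protein that limits the pathway and whose RNA is widely used to read it (plus strand of chromosome 11, 108920349 to 108950783), was at 4.94, 2.88 and 2.95 CPM with the FZD5 agonist, against 2.199, 0 and 1.83 CPM in the 24 h libraries. FZD5 agonist 1 was the highest, and every agonist library exceeded every 24 h library, but the difference was small beside the spread (log2 change 0.85, SE 0.36, edgeR adjusted p = 0.221). In the 18-library fit it did not pass either (log2 change 1.41, SE 0.96, edgeR adjusted p = 0.485).

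The remaining feedback genes of the pathway did not pass. Nkd1, an inhibitor of Dishevelled, was at 45.8, 38.9 and 33.8 CPM, against 27.9, 26.6 and 14.004 CPM after 24 h, with no overlap (log2 change 0.93, SE 0.41, edgeR adjusted p = 0.272). Rnf43, a ubiquitin ligase that removes Frizzleds from the surface, was at 57.3, 58.1 and 55.2 CPM, against 49.2, 8.596 and 54.2 CPM after 24 h (log2 change 0.16, SE 0.09, edgeR adjusted p = 0.418). Lgr5, an R-spondin receptor and Wnt target, was at 0.491, 1.13 and 0.957 CPM, against 1.17, 0 and 0.995 CPM after 24 h, with the groups overlapping (log2 change -0.30, SE 0.59, edgeR adjusted p = 0.856). Notum, a secreted enzyme that inactivates Wnt ligands, was at 2.48, 0.357 and 0.452 CPM, against 0.529, 0 and 0.576 CPM after 24 h, where FZD5 agonist 1 alone stood above the 24 h libraries (log2 change 0.99, SE 0.80, edgeR adjusted p = 0.586). Of 21 tested targets 1 rose and 1 fell, against 2.37% and 1.86% of all genes, with 14 fitted values above 0 and a median of 0.16.

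In the destruction complex and Dishevelled list 2 of 17 rose, against 2.37% of all genes. They were Apc, the scaffold of the complex, and Dvl2. Apc was at 152, 169 and 158 CPM, against 111, 51.2 and 128 CPM after 24 h (log2 change 0.44, SE 0.08, edgeR adjusted p = 0.00841). Dvl2, a Dishevelled that relays the signal from Frizzled, was at 59.2, 60.4 and 59.2 CPM, against 49.5, 119 and 50.6 CPM after 24 h, so that 24 h withdrawal 2 was above the agonist libraries and the 18-library log2 fold change was -0.29 (log2 change 0.27, SE 0.07, edgeR adjusted p = 0.0327). The Groucho-type co-repressors, which hold TCF/LEF targets silent without beta-catenin, moved in both directions. Tle3 rose to 54.7, 50.3 and 44.97 CPM, against 29.3, 15.9 and 31.99 CPM after 24 h, with no overlap (log2 change 0.73, SE 0.09, edgeR adjusted p = 0.000469). Tle1 fell to 30.2, 43.6 and 41.4 CPM, against 60.03, 63.9 and 56.6 CPM after 24 h, also with no overlap (log2 change -0.58, SE 0.12, edgeR adjusted p = 0.0161). Tle2 was at 50.8, 49.9 and 44.9 CPM, against 36.6, 264 and 38.7 CPM after 24 h, higher than in 24 h withdrawal 1 and 3 but far below 24 h withdrawal 2 (log2 change 0.39, SE 0.09, edgeR adjusted p = 0.0298). Apc, Dvl2, Tle1 and Tle2 no longer passed without 24 h withdrawal 1 (edgeR adjusted p of 0.134 to 0.235). Dvl2, Tle1 and Tle2 lost the call without 24 h withdrawal 3 (edgeR adjusted p of 0.0545 to 0.099). Dvl2 and Tle2 missed the threshold without FZD5 agonist 1 (edgeR adjusted p of 0.0588 to 0.0713). Tle2 did not pass without FZD5 agonist 2 (edgeR adjusted p = 0.0506). Tle3 passed with any 1 of the 5 libraries left out of the 14-library fit, but not in the 5-library fit (edgeR adjusted p = 0.0584). Planar cell polarity genes gave 0 calls among 13, against 4.23% of all genes.

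Among Wnt ligands 1 of 10 tested passed, against 4.23% of all genes. Wnt4 was at 23.6, 16.4 and 16.5 CPM with the FZD5 agonist, against 12.7, 81.1 and 12.4 CPM in the 24 h libraries. It was higher than in 24 h withdrawal 1 and 3 (log2 change 0.61, SE 0.14, edgeR adjusted p = 0.0248), but 24 h withdrawal 2 was above all agonist libraries and turned the 18-library log2 fold change to -0.91. Wnt4 no longer passed without 24 h withdrawal 1 (edgeR adjusted p = 0.155). Wnt4 lost the call without 24 h withdrawal 3 (edgeR adjusted p = 0.12). Wnt3a, chosen for mention after its values were seen, was at 3.08, 0.378 and 0.452 CPM with the FZD5 agonist and had no count in any 24 h library. It stood mostly on FZD5 agonist 1 and did not pass (edgeR adjusted p = 0.0937).

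The Sp5 promoter is printed because Sp5 was the canonical target that rose. The window runs from 250 bases before to 50 after the RefSeq start on GRCm38.p6 (chr2:70474673-70474972, plus strand), written 5′ to 3′ on the gene's strand. Capitals mark the TCF/LEF core CTTTGAT, searched on both strands, which starts 104 bases before the gene's start on the gene's own strand. The core occurs in 1225 of 32851 RefSeq promoter windows of that length (3.73%), and of 6 Wnt genes searched 4 had a window and 1 held the core. The match is a description of the letters and not a measured site.
Sp5: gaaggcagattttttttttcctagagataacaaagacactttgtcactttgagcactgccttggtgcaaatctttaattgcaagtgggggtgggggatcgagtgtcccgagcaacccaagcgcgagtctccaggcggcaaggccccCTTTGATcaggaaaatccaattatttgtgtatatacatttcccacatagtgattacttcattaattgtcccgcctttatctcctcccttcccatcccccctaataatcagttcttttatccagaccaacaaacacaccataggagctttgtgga

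Several chemokines and other genes of the NF-kB response were higher with the FZD5 agonist. Of 23 tested members of this response list 9 rose and 0 fell, against 2.37% and 1.86% of all genes, with 20 fitted values above 0 and a median log2 fold change of 0.75. NF-kB is a transcription factor family that drives genes of inflammation and is kept inactive in the cytoplasm by inhibitors such as Nfkbia. Cxcl5, the 1 gene that passed with all libraries, had the smallest p here too (log2 change 1.57, SE 0.09, edgeR adjusted p = 2.52e-07), averaging 363 ± 34.6 CPM with the agonist (SD, n = 3) and 124 ± 7.97 CPM in 24 h withdrawal 1 and 3 (SD, n = 2). Cxcl1, another neutrophil chemokine (plus strand of chromosome 5, 90891241 to 90893115), was at 26.2, 27.6 and 29.9 CPM with the FZD5 agonist, against 12.4, 19.02 and 10.5 CPM in the 24 h libraries. The groups did not overlap, with 24 h withdrawal 2 the nearest (log2 change 1.30, SE 0.14, edgeR adjusted p = 0.00019). Cxcl2, its close relative, was at 6.47, 6.38 and 6.33 CPM, against 2.23, 12.7 and 2.59 CPM after 24 h, so that 24 h withdrawal 2 was above every agonist library and the other 24 h libraries were below (log2 change 1.43, SE 0.19, edgeR adjusted p = 0.00099).

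Inhibitors that NF-kB itself induces rose with the chemokines. Tnfaip3, the ubiquitin-editing protein A20, rose to 69.9, 62.6 and 54.9 CPM, against 35.98, 11.3 and 30.3 CPM after 24 h, with no overlap (log2 change 0.93, SE 0.12, edgeR adjusted p = 0.000654). Nfkbiz, a nuclear co-factor of NF-kB, rose to 77.4, 67.9 and 69.1 CPM, against 40.5, 13.6 and 38.1 CPM after 24 h, with no overlap (log2 change 0.88, SE 0.11, edgeR adjusted p = 0.000469). Tnfaip2 rose to 227, 211 and 169.6 CPM, against 97.4, 56.5 and 104 CPM after 24 h (log2 change 1.03, SE 0.12, edgeR adjusted p = 0.000371). For Nfkbia, at 239.9, 221 and 193 CPM, against 141, 302 and 121 CPM after 24 h, 24 h withdrawal 2 was again the highest of the 6 libraries (log2 change 0.75, SE 0.10, edgeR adjusted p = 0.000537). The remaining called members were Birc3, an inhibitor of apoptosis (log2 change 0.38, SE 0.08, edgeR adjusted p = 0.0156), and Nfkb2, the p52 precursor (log2 change 0.44, SE 0.10, edgeR adjusted p = 0.0225). For Nfkb2, 24 h withdrawal 2 was at 101 CPM, above every agonist library. Birc3 and Nfkb2 no longer passed without 24 h withdrawal 1 (edgeR adjusted p of 0.145 to 0.252). Birc3 lost the call without 24 h withdrawal 3 (edgeR adjusted p = 0.0591). Nfkb2 missed the threshold without FZD5 agonist 1 (edgeR adjusted p = 0.0567). Cxcl5, Cxcl1, Cxcl2, Tnfaip3, Nfkbiz, Tnfaip2 and Nfkbia passed with any 1 of the 5 libraries left out of the 14-library fit. Of these, Nfkbia did not pass in the 5-library fit (edgeR adjusted p = 0.0607). In the 18-library fit the median of the list was 0.38, and Cxcl5 was the only member called.

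Acute phase and complement genes are made by liver and epithelia during inflammation. Of 12 tested 6 rose and 0 fell, against 2.37% and 1.86% of all genes, with a median log2 fold change of 0.69. The summed level of the 19 listed genes overlapped between the groups. It was 3001, 4833 and 4101 CPM with the FZD5 agonist, against 4025, 3400 and 3102 CPM in the 24 h libraries. FZD5 agonist 1 had the lowest sum of the 6 libraries. Itih4, an acute phase protein related to the inter-alpha inhibitors (plus strand of chromosome 14, 30886476 to 30902353), was at 86.03, 79.1 and 65.999 CPM with the FZD5 agonist, against 14.6, 4.97 and 14.3 CPM in the 24 h libraries. All agonist libraries were above all 24 h libraries (log2 change 2.44, SE 0.19, edgeR adjusted p = 7.03e-05). Without the spread of other groups, in the 5-library fit, Itih4 also passed (edgeR adjusted p = 0.000375). It did not pass in the 17-library or 18-library fit (edgeR adjusted p = 0.507 and 0.214). Cfb, factor B of the alternative complement pathway (minus strand of chromosome 17, 34856374 to 34862518), was at 31.2, 27.2 and 26.1 CPM with the FZD5 agonist, against 9.52, 1.62 and 10.5 CPM in the 24 h libraries. It did not overlap either (log2 change 1.51, SE 0.12, edgeR adjusted p = 9.90e-06). Cfb passed in the 5-library and 17-library fits as well (edgeR adjusted p = 0.00601 and 0.0151) but not in the 18-library fit (edgeR adjusted p = 0.214). C3, the central complement protein, rose to 269.9, 259 and 238 CPM, against 161, 88.98 and 177 CPM after 24 h (log2 change 0.62, SE 0.08, edgeR adjusted p = 0.000469). C3 did not pass in the 17-library fit, nor in the 5-library or 18-library fit (edgeR adjusted p = 0.0607 and 0.239).

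Lbp, which presents bacterial lipopolysaccharide, rose by a log2 fold change of 0.49 (edgeR adjusted p = 0.00519). The haemoglobin-binding protein Hp and the copper carrier Cp showed the opposite order once 24 h withdrawal 2 was counted. Hp was at 59.1, 54.6 and 66.4 CPM with the FZD5 agonist, against 37.7, 1168 and 33.6 CPM in the 24 h libraries. Its log2 fold change was 0.77 without 24 h withdrawal 2 (edgeR adjusted p = 0.00912) and -2.78 in the 18-library fit, where it did not pass (edgeR adjusted p = 0.296). Cp was at 5.46, 7.16 and 6.06 CPM, against 3.65, 57.5 and 3.298 CPM after 24 h, with 24 h withdrawal 2 again the highest of the 6 (log2 change 0.86, SE 0.22, edgeR adjusted p = 0.0374). Hp and Cp no longer passed without 24 h withdrawal 1 (edgeR adjusted p of 0.068 to 0.187). Lbp, Hp and Cp lost the call without 24 h withdrawal 3 (edgeR adjusted p of 0.0559 to 0.171). Cp missed the threshold without FZD5 agonist 2 (edgeR adjusted p = 0.0841). Cp did not pass without FZD5 agonist 3 (edgeR adjusted p = 0.0549). Itih4, Cfb and C3 passed with any 1 of the 5 libraries left out. The summed level of 17 club and secretory markers, a list that includes Hp, was also highest in 24 h withdrawal 2. Unlike for Hp, FZD5 agonist 2 lay below 24 h withdrawal 1 for this sum. It was 728, 462 and 500 CPM with the FZD5 agonist, against 472, 2662 and 439 CPM in the 24 h libraries, and its part in the results of these genes was not tested.

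**Figure D2:**
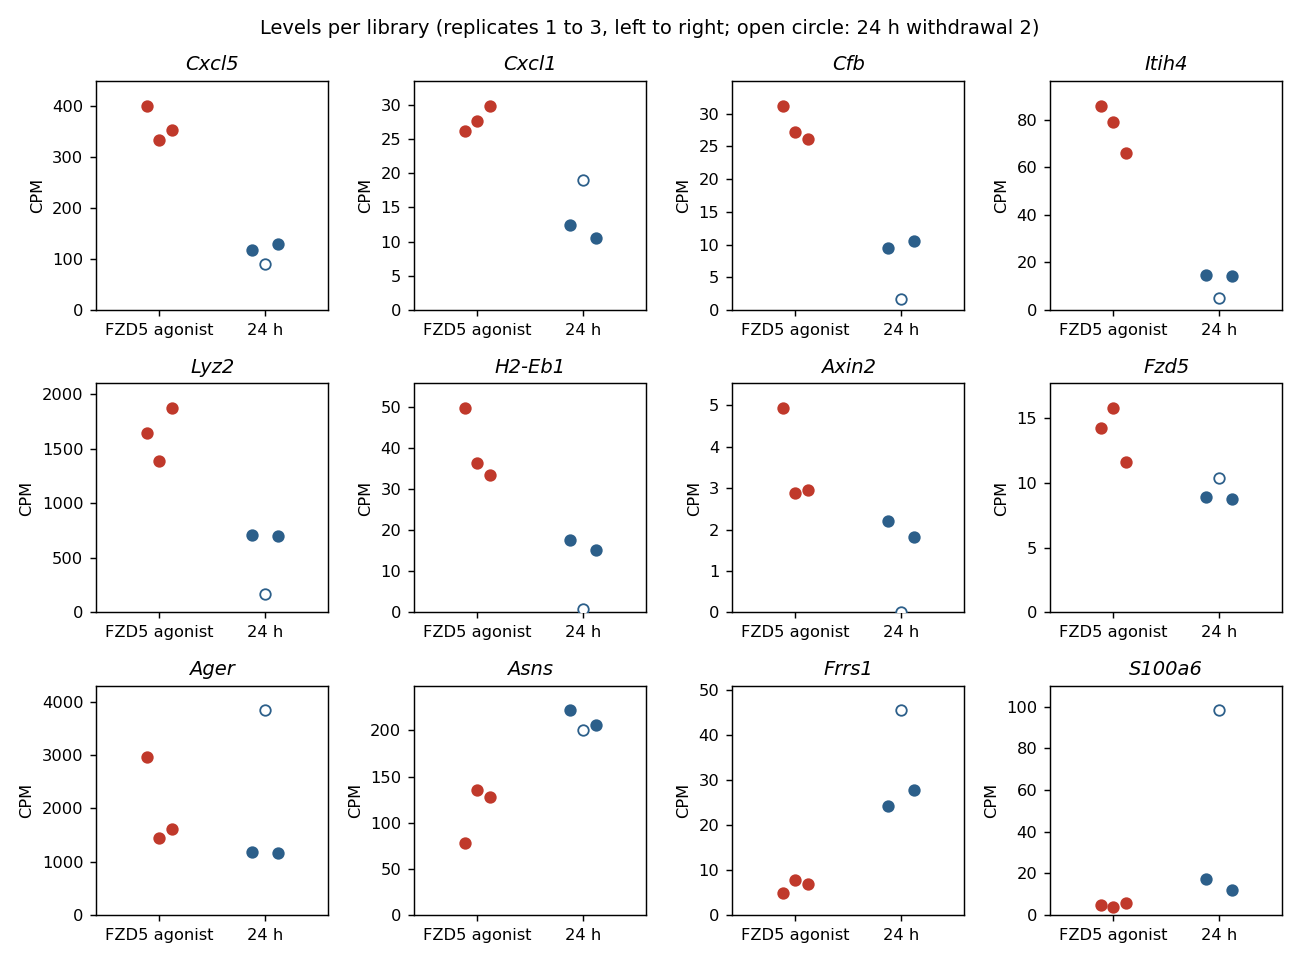
CPM of 12 genes (vertical axes, linear from 0) in the 3 FZD5 agonist libraries (red, left) and the 3 libraries of 24 h withdrawal (blue, right), 1 point per library and replicates 1 to 3 from left to right within a group. The open circle is 24 h withdrawal 2, which lies with the other 24 h libraries for Cxcl5 and Asns and above the agonist libraries for Ager and S100a6.

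Of 16 tested genes of antigen presentation 6 rose and 0 fell, against 2.37% and 1.86% of all genes, with a median of 0.39. The 6 were H2-Aa, H2-Eb1, Cd74, H2-DMa and H2-DMb1 of the class II path and Tapbp of the class I path. Alveolar type 2 cells are known to express class II molecules. The class I heavy chain gene H2-K1 was at 460, 438 and 446 CPM with the FZD5 agonist, against 499.9, 625 and 424 CPM in the 24 h libraries, and did not pass (log2 change -0.02, edgeR adjusted p = 0.911). H2-D1, another, was at 764, 799 and 810.3 CPM, against 954, 1191 and 919 CPM after 24 h, and did not pass either (log2 change -0.22, edgeR adjusted p = 0.0621). H2-Aa, the class II alpha chain (minus strand of chromosome 17, 34282744 to 34287823), was at 69.7, 37.8 and 29.1 CPM with the FZD5 agonist, against 12.5, 1.97 and 11.1 CPM in the 24 h libraries. FZD5 agonist 1 was far above the other agonist libraries, and all 3 exceeded all 24 h libraries (log2 change 1.97, SE 0.43, edgeR adjusted p = 0.0411). H2-Eb1, a beta chain, rose to 49.7, 36.5 and 33.5 CPM, against 17.7, 0.845 and 15.2 CPM after 24 h (log2 change 1.30, SE 0.25, edgeR adjusted p = 0.0176). Cd74, the invariant chain, was at 2219, 1607 and 1548 CPM, against 1048, 682 and 1073 CPM after 24 h, again with FZD5 agonist 1 the highest (log2 change 0.78, SE 0.12, edgeR adjusted p = 0.00299).

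H2-DMa and H2-DMb1, which load peptides onto class II, rose by log2 fold changes of 0.66 and 0.39, and the class I loading factor Tapbp by 0.39 (edgeR adjusted p = 0.0211, 0.0251 and 0.0195). Cd83, a membrane protein known to stabilise class II on antigen-presenting cells and the highest fold change among the called genes named here, was at 24.97, 8.502 and 9.702 CPM, against 2.28, 0 and 2.54 CPM after 24 h (log2 change 2.60, SE 0.46, edgeR adjusted p = 0.0139). H2-Aa, H2-Eb1, Cd74, H2-DMa, H2-DMb1, Tapbp and Cd83 no longer passed without 24 h withdrawal 1 (edgeR adjusted p of 0.0612 to 0.232). H2-Aa, H2-Eb1, H2-DMa, H2-DMb1, Tapbp and Cd83 lost the call without 24 h withdrawal 3 (edgeR adjusted p of 0.0783 to 0.167). H2-DMb1 missed the threshold without FZD5 agonist 1 (edgeR adjusted p = 0.0504).

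Markers of blood cells, which carry class II too, were near 0. Ptprc, the pan-leukocyte marker CD45, reached 0.042 CPM in 1 agonist library and had no count in the other 5 of the comparison. The macrophage receptor Marco had no count in any of the 6, and Csf1r was at 0.136, 0.231 and 0.239 CPM, against 0.0278, 0 and 0.0524 CPM after 24 h. The summed level of the 12 haematopoietic markers was 1646, 1396 and 1878 CPM with the FZD5 agonist, against 720, 171 and 708 CPM in the 24 h libraries, nearly all of it Lyz2, which alveolar type 2 cells also express.

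Among alveolar type 2 markers 4 of 25 rose and 1 fell, against 2.37% and 1.86% of all genes, and the surfactant genes did not pass. Lyz2, lysozyme (minus strand of chromosome 10, 117277331 to 117282321), was at 1639, 1385 and 1871 CPM with the FZD5 agonist, against 711, 171 and 700.3 CPM in the 24 h libraries. All agonist libraries were above all 24 h libraries (log2 change 1.23, SE 0.10, edgeR adjusted p = 2.28e-05), with the caution that reads could be split with the near-identical Lyz1. Chil1, a chitinase-like protein, rose to 10227, 10275 and 10732 CPM, against 6931, 3919 and 6614 CPM after 24 h, with no overlap and agonist libraries close to each other (log2 change 0.64, SE 0.07, edgeR adjusted p = 0.00019). Muc1, a membrane mucin, rose to 3239.8, 2802 and 2732 CPM, against 1879.5, 177 and 2059 CPM after 24 h (log2 change 0.59, SE 0.09, edgeR adjusted p = 0.0026). Egfl6, a secreted protein of the EGF repeat family, rose to 289, 186 and 188 CPM, against 90.6, 2.47 and 96.8 CPM after 24 h (log2 change 1.26, SE 0.19, edgeR adjusted p = 0.00631), with 24 h withdrawal 2 far below the rest.

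Ctsh, the protease cathepsin H, was at 2611, 2775 and 3367 CPM, against 4088, 1244 and 3578 CPM after 24 h, and fell relative to 24 h withdrawal 1 and 3 (log2 change -0.37, SE 0.10, edgeR adjusted p = 0.0425). Sftpc (minus strand of chromosome 14, 70520949 to 70524081) was at 53788, 39301 and 52406 CPM, against 41612, 144814 and 38858 CPM after 24 h. The agonist libraries overlapped 24 h withdrawal 1 and 3, and 24 h withdrawal 2 was above all (log2 change 0.29, SE 0.13, edgeR adjusted p = 0.255). The median of the list was 0.12. Muc1, Egfl6 and Ctsh no longer passed without 24 h withdrawal 1 (edgeR adjusted p of 0.0658 to 0.389). Ctsh lost the call without 24 h withdrawal 3 (edgeR adjusted p = 0.055). Ctsh missed the threshold without FZD5 agonist 1 (edgeR adjusted p = 0.082). Ctsh did not pass without FZD5 agonist 2 (edgeR adjusted p = 0.0834). Lyz2 and Chil1 passed with any 1 of the 5 libraries left out of the 14-library fit. In the 5-library fit Lyz2 passed and Chil1 did not (edgeR adjusted p = 0.0153 and 0.0824). In bulk samples a change in the share of cells of a type and a change in RNA per cell cannot be told apart, here and below.

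Alveolar type 1 markers had mostly positive fold changes, with 21 of 23 fitted above 0, against 8984 of all 17433 genes, and a median of 0.67. Only Pdpn passed, beside 2.37% of all genes called higher. The summed level of the list overlapped between the groups. It was 14014, 10772 and 10918 CPM with the FZD5 agonist, against 11149, 12957 and 10009 CPM in the 24 h libraries. Pdpn, podoplanin, was at 13.9, 14.4 and 10.8 CPM with the FZD5 agonist, against 6.902, 0.0705 and 7.198 CPM in the 24 h libraries. The groups did not overlap (log2 change 0.91, SE 0.20, edgeR adjusted p = 0.0225). Ager, which encodes the membrane receptor RAGE of type 1 cells (plus strand of chromosome 17, 34597862 to 34600936), was at 2961, 1448 and 1622 CPM with the FZD5 agonist, against 1189, 3840.1 and 1166 CPM in the 24 h libraries. FZD5 agonist 1 lay nearest to 24 h withdrawal 2, the highest of the 6, and the other agonist libraries lay above 24 h withdrawal 1 and 3 (log2 change 0.79, SE 0.25, edgeR adjusted p = 0.126). With all libraries its log2 fold change was -0.04 (edgeR adjusted p = 0.964).

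Hopx, a homeodomain protein, was at 228, 137 and 147 CPM, against 129, 147 and 95.5 CPM after 24 h, and overlapped only through 24 h withdrawal 2 (log2 change 0.63, SE 0.21, edgeR adjusted p = 0.138). Cav1, the caveola protein, was at 62.8, 25.2 and 19.005 CPM, against 9.46, 0 and 7.49 CPM after 24 h, and Rtkn2 at 22.3, 5.63 and 4.57 CPM, against 2.84, 0 and 2.51 CPM after 24 h. FZD5 agonist 1 was the highest for both, and neither passed (edgeR adjusted p = 0.0549 and 0.175). Aqp5, the water channel, was at 2881, 3177 and 3423 CPM, against 4125, 5309.7 and 3436 CPM after 24 h, with no agonist library above any 24 h library (log2 change -0.24, SE 0.10, edgeR adjusted p = 0.218). Pdpn no longer passed without 24 h withdrawal 1 (edgeR adjusted p = 0.193). Pdpn lost the call without 24 h withdrawal 3 (edgeR adjusted p = 0.0969). Pdpn missed the threshold without FZD5 agonist 1 (edgeR adjusted p = 0.0503). Of 20 genes of the transitional state between type 2 and type 1 cells 0 rose and 2 fell, against 2.37% and 1.86% of all genes. The 2 were Clu (log2 change -0.47, SE 0.10, edgeR adjusted p = 0.021) and Plaur (log2 change -0.77, SE 0.20, edgeR adjusted p = 0.0484). Leaving out 24 h withdrawal 1 ended both of these calls, and 24 h withdrawal 3, FZD5 agonist 1 or FZD5 agonist 3 ended 1 of them (edgeR adjusted p of 0.0651 to 0.565).

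Several amino acid synthesis genes under the stress factor ATF4 were lower with the FZD5 agonist. ATF4 is a transcription factor that switches on amino acid synthesis when protein synthesis is stressed. Of 28 tested genes 0 rose and 6 fell, against 2.37% and 1.86% of all genes. Of the 28, 22 were fitted below 0, against 8445 of all 17433 genes, and the median was -0.33. The summed level of the list overlapped between the groups. It was 1462, 2645 and 2150 CPM with the FZD5 agonist, against 2898, 6737 and 2173 CPM in the 24 h libraries. Asns, asparagine synthetase (minus strand of chromosome 6, 7675169 to 7693254), was at 78.3, 135 and 128 CPM with the FZD5 agonist, against 222, 201 and 206 CPM in the 24 h libraries. No agonist library reached a 24 h library, and FZD5 agonist 1 was the lowest (log2 change -0.89, SE 0.17, edgeR adjusted p = 0.0156). Phgdh, the first enzyme of serine synthesis, fell to 5.87, 7.64 and 8.21 CPM, against 13.8, 13.1 and 13.1 CPM after 24 h, with no overlap (log2 change -0.87, SE 0.15, edgeR adjusted p = 0.00625). Psph, the last enzyme of that path, fell to 14.5, 19.6 and 20.998 CPM, against 32.7, 48.9 and 31.8 CPM after 24 h (log2 change -0.79, SE 0.13, edgeR adjusted p = 0.00463). Shmt2, which moves a carbon from serine to folate in mitochondria, fell to 79.2, 107 and 94.4 CPM, against 138, 146 and 138 CPM after 24 h (log2 change -0.54, SE 0.10, edgeR adjusted p = 0.00899).

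Psat1, the middle enzyme of serine synthesis, and Sesn2, a stress sensor of the mTORC1 pathway, fell by 0.56 and 0.71 on the log2 scale (edgeR adjusted p = 0.0317 and 0.023). Psat1 was at 82.5, 115 and 114 CPM with the FZD5 agonist, against 160, 63.4 and 150 CPM in the 24 h libraries. For Psat1, 24 h withdrawal 2 was thus below every agonist library, and the 18-library log2 fold change was -0.26. The groups did not overlap for Sesn2. With all libraries the list had 25 of 28 fitted below 0, a median of -0.64 and no call. The aminoacyl-tRNA synthetases, which load amino acids onto transfer RNA, had 2 of 20 lower, against 1.86% of all genes, and 19 of 20 fitted below 0. The 2 were Wars (log2 change -0.42, SE 0.08, edgeR adjusted p = 0.0087) and Gars (log2 change -0.41, SE 0.09, edgeR adjusted p = 0.0225). Asns, Phgdh, Psph, Shmt2, Psat1, Sesn2, Wars and Gars no longer passed without 24 h withdrawal 1 (edgeR adjusted p of 0.0612 to 0.249). Asns, Psat1, Sesn2, Wars and Gars lost the call without 24 h withdrawal 3 (edgeR adjusted p of 0.056 to 0.087).

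In a list of endoplasmic reticulum chaperones and XBP1 targets 6 of 20 tested fell and 1 rose, against 1.86% and 2.37% of all genes, with a median of -0.23. Calr, calreticulin, was at 424, 530.0 and 543 CPM with the FZD5 agonist, against 718, 112 and 747 CPM in the 24 h libraries. The agonist libraries lay below 24 h withdrawal 1 and 3, and 24 h withdrawal 2 was below all of them (log2 change -0.53, SE 0.09, edgeR adjusted p = 0.00383). Hspa5, the chaperone BiP, was at 1369, 1515 and 1499 CPM, against 1844, 342 and 1907 CPM after 24 h, in the same order (log2 change -0.34, SE 0.06, edgeR adjusted p = 0.00912). Creld2 and Manf, both induced when proteins misfold there, fell by 0.45 and 0.45 on the log2 scale (edgeR adjusted p = 0.00513 and 0.00582). The groups did not overlap for Creld2. Manf was at 82.8, 86.5 and 93.6 CPM with the FZD5 agonist, against 127, 53.9 and 115 CPM in the 24 h libraries. For Manf, 24 h withdrawal 2 was thus below every agonist library, and the 18-library log2 fold change was -0.17.

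The member that rose was Crebrf, a regulator of the stress factor Creb3 (plus strand of chromosome 17, 26715650 to 26776635), at 38.99, 28.6 and 29.4 CPM with the FZD5 agonist, against 12.2, 9.93 and 11.2 CPM in the 24 h libraries. The groups did not overlap and 24 h withdrawal 2 lay with its group (log2 change 1.49, SE 0.15, edgeR adjusted p = 0.00015), and it narrowly missed the threshold with all libraries (log2 change 1.54, SE 0.23, edgeR adjusted p = 0.0616). Hspa5, Creld2 and Manf no longer passed without 24 h withdrawal 1 (edgeR adjusted p of 0.0694 to 0.0978). Hspa5 lost the call without 24 h withdrawal 3 (edgeR adjusted p = 0.0575). Calr and Crebrf passed with any 1 of the 5 libraries left out of the 14-library fit. In the 5-library fit Crebrf passed and Calr did not (edgeR adjusted p = 0.0153 and 0.13). With all libraries the median of the list was 0.09.

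**Figure D3:**
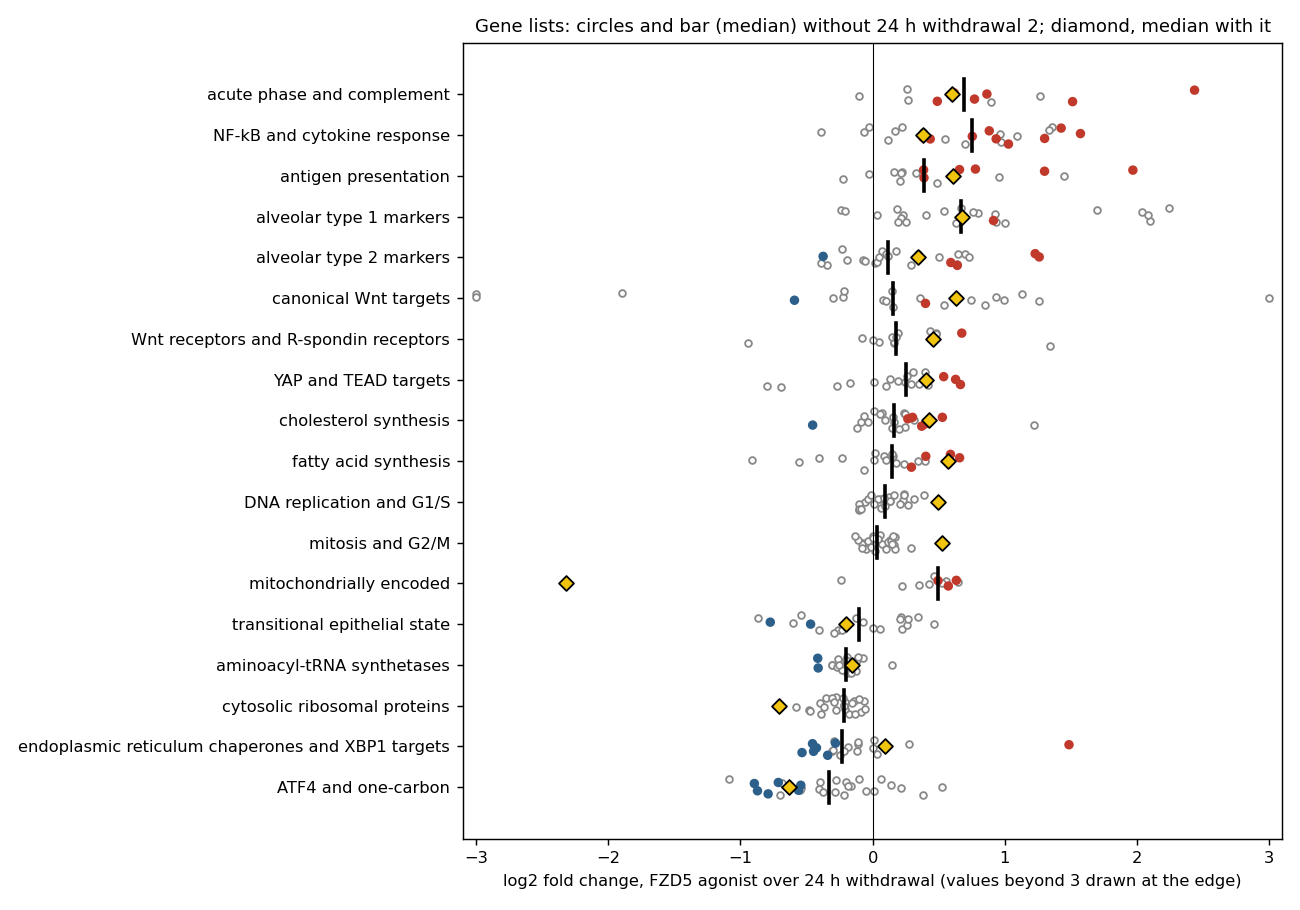
Log2 fold change (horizontal axis, FZD5 agonist over 24 h withdrawal) of each tested member of 18 gene lists, as circles from the 14-library fit, red where called higher, blue where called lower and open where not called. The black bar is the median of the list in that fit and the yellow diamond its median in the 18-library fit. The bars of the acute phase list (0.69) and the NF-kB list (0.75) lie to the right and that of the ATF4 list (-0.33) to the left, while the diamond of the mitochondrially encoded list lies at -2.32.

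Of 23 cholesterol synthesis genes 5 rose and 1 fell, and of 19 fatty acid synthesis genes 4 rose and 0 fell, against 2.37% and 1.86% of all genes. The fitted values were above 0 for 18 and 14 of them, with medians of 0.16 and 0.15. Insig1, which restrains the sterol sensor and is itself induced with this pathway, was at 266, 228 and 230.4 CPM, against 166, 49.1 and 174 CPM after 24 h (log2 change 0.53, SE 0.09, edgeR adjusted p = 0.00385). Acat2 and Hmgcs1, which make the precursors of mevalonate, rose by log2 fold changes of 0.40 and 0.30 (edgeR adjusted p = 0.00912 and 0.0184). The desaturase Fads2 was at 146, 159 and 136 CPM, against 91.6, 1.94 and 97.3 CPM after 24 h, with no overlap (log2 change 0.66, SE 0.08, edgeR adjusted p = 0.000324), and its neighbour Fads1 at 379, 413 and 371 CPM, against 299.9, 72.1 and 295 CPM after 24 h (log2 change 0.40, SE 0.07, edgeR adjusted p = 0.00841). Lpin1, a phosphatidate phosphatase, rose by 0.59 (edgeR adjusted p = 0.0317). In 24 h withdrawal 2 these 6 genes were at the lowest level of the 6 libraries. The cholesterol gene that fell was Pmvk, which encodes phosphomevalonate kinase, at 83.1, 109 and 116 CPM, against 152, 553 and 133 CPM after 24 h, with no overlap (log2 change -0.45, SE 0.12, edgeR adjusted p = 0.0422). Its call was lost when 24 h withdrawal 1, 24 h withdrawal 3, FZD5 agonist 1 or FZD5 agonist 2 was left out (edgeR adjusted p of 0.0501 to 0.356). Insig1, Acat2, Hmgcs1, Fads1 and Lpin1 no longer passed without 24 h withdrawal 1 (edgeR adjusted p of 0.068 to 0.155). Hmgcs1, Fads1 and Lpin1 lost the call without 24 h withdrawal 3 (edgeR adjusted p of 0.0554 to 0.188). Lpin1 missed the threshold without FZD5 agonist 2 (edgeR adjusted p = 0.0579). Lpin1 did not pass without FZD5 agonist 3 (edgeR adjusted p = 0.0574). Fads2 passed with any 1 of the 5 libraries left out.

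Targets and parts of the YAP and TEAD pathway, which senses cell shape and contact, rose in 3 of 18 and fell in 0, against 2.37% and 1.86% of all genes. The other 15 did not pass. Amotl2, an inhibitor of YAP, was at 252, 263 and 232 CPM with the FZD5 agonist, against 167, 25.4 and 160.4 CPM in the 24 h libraries. The groups did not overlap (log2 change 0.63, SE 0.08, edgeR adjusted p = 0.00044). Wwtr1, which encodes the co-activator TAZ, rose to 363, 316 and 294 CPM, against 224, 75.4 and 191 CPM after 24 h (log2 change 0.66, SE 0.11, edgeR adjusted p = 0.00373), and the kinase gene Lats2 to 21.9, 22.4 and 21.1 CPM, against 14.9, 14.1 and 15.6 CPM after 24 h (log2 change 0.54, SE 0.10, edgeR adjusted p = 0.00912). Klf6, an early-response transcription factor, rose to 156, 154 and 129.9 CPM, against 88.6, 70.8 and 73.2 CPM after 24 h, also with no overlap (log2 change 0.88, SE 0.11, edgeR adjusted p = 0.000469). Egfr, the EGF receptor, was at 18.2, 11.2 and 14.4 CPM, against 7.01, 0 and 5.104 CPM after 24 h (log2 change 1.29, SE 0.23, edgeR adjusted p = 0.00719). The ephrin receptor Epha2 instead fell by 0.55 on the log2 scale (edgeR adjusted p = 0.0484). For Epha2, 24 h withdrawal 2 was at 148 CPM, within the range of the agonist libraries.

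Smad9, a mediator of BMP signals, was at 6.71, 4.26 and 3.54 CPM, against 1.09, 0.388 and 1.49 CPM after 24 h (log2 change 1.92, SE 0.45, edgeR adjusted p = 0.032), and Tgfb1, the TGF beta ligand, rose by 0.59 (edgeR adjusted p = 0.0223). Lamb2, a chain of basement membrane laminin, rose by a log2 fold change of 0.38 (edgeR adjusted p = 0.0156). Lats2, Epha2, Smad9, Tgfb1 and Lamb2 no longer passed without 24 h withdrawal 1 (edgeR adjusted p of 0.103 to 0.28). Egfr, Epha2, Smad9 and Tgfb1 lost the call without 24 h withdrawal 3 (edgeR adjusted p of 0.0699 to 0.137). Smad9 missed the threshold without FZD5 agonist 1 (edgeR adjusted p = 0.0676). Epha2 did not pass without FZD5 agonist 3 (edgeR adjusted p = 0.0866). Amotl2, Wwtr1 and Klf6 passed with any 1 of the 5 libraries left out of the 14-library fit. Of these, Amotl2 and Wwtr1 did not pass in the 5-library fit (edgeR adjusted p = 0.0527 and 0.091).

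Proliferation genes did not pass in either direction. Of 24 genes of DNA replication and 26 of mitosis 0 were called, against 4.23% of all genes, with medians of 0.09 and 0.04. In lists of this size 0 calls lie near that share. Mki67, a marker of cycling cells, was at 119, 163 and 131 CPM with the FZD5 agonist, against 104, 25.1 and 146 CPM in the 24 h libraries. The agonist libraries overlapped 24 h withdrawal 1 and 3 (log2 change 0.16, SE 0.16, edgeR adjusted p = 0.691). With all libraries the medians were 0.49 and 0.52 and all 24 and 26 fitted values were above 0, still without a call, and 24 h withdrawal 2 had the lowest summed level of both lists (180 and 260 CPM, against at least 933 and 2034 CPM in the other 5 libraries).

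Further lists had few calls, beside 2.37% of all genes higher and 1.86% lower. A single call says little about such a list. In the interferon response list 1 of 20 rose, the transcription factor Irf1, at 153, 157 and 145 CPM, against 117, 127 and 106 CPM after 24 h (log2 change 0.46, SE 0.08, edgeR adjusted p = 0.00823). Among lung transcription factors 1 of 23 rose, the epithelial ETS factor Ehf (log2 change 0.57, SE 0.12, edgeR adjusted p = 0.0156). In the ribosome biogenesis list 1 of 23 fell, Rrp9, a factor of ribosomal RNA processing (log2 change -0.56, SE 0.11, edgeR adjusted p = 0.014), with 20 of 23 fitted below 0. The lists of hypoxia, heat shock, NRF2 targets, Notch, surfactant lipid synthesis, ion transport, and ciliated, basal, neuroendocrine, mesenchymal and gut markers gave 0 calls at an adjusted p under 0.05. Ehf and Rrp9 no longer passed without 24 h withdrawal 1 (edgeR adjusted p of 0.172 to 0.175). Irf1 and Ehf lost the call without 24 h withdrawal 3 (edgeR adjusted p of 0.0604 to 0.0722).

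Outside the lists, further genes were among the 12 steepest rises at an average log2 CPM of at least 2. Cyp2b10, a cytochrome P450 of a family with near-identical members, was at 39.8, 19.04 and 23.3 CPM with the FZD5 agonist, against 6.01, 19.7 and 7.28 CPM in the 24 h libraries. The agonist libraries stood above 24 h withdrawal 1 and 3, and 24 h withdrawal 2 lay among them (log2 change 2.06, SE 0.31, edgeR adjusted p = 0.00702). Ces1d, a carboxylesterase with close relatives beside it, was at 533, 165 and 226 CPM, against 64.8, 393 and 84.5 CPM after 24 h (log2 change 2.07, SE 0.46, edgeR adjusted p = 0.0466), and Akr1c14, a steroid-reducing enzyme, at 33.7, 13.9 and 15.6 CPM, against 4.397, 0.528 and 6.86 CPM after 24 h (log2 change 1.92, SE 0.41, edgeR adjusted p = 0.0322). FZD5 agonist 1 was the highest of the agonist libraries for these 3 genes. Pigr, which carries IgA across epithelia, was at 197, 124 and 90.8 CPM, against 45.9, 90.6 and 34.8 CPM after 24 h (log2 change 1.79, SE 0.35, edgeR adjusted p = 0.0273).

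Sema5a, a semaphorin, was at 9.47, 7.26 and 9.197 CPM, against 3.31, 0 and 2.36 CPM after 24 h (log2 change 1.63, SE 0.36, edgeR adjusted p = 0.0256). Nbl1, a secreted BMP antagonist, rose by a log2 fold change of 1.58 (edgeR adjusted p = 0.0195). Cd177, a surface protein known from neutrophils, was chosen for mention after its values were seen. It was at 1953, 3075 and 2862 CPM with the FZD5 agonist, against 1115, 337 and 1090.0 CPM in the 24 h libraries, with FZD5 agonist 1 the lowest of its group and still above all 24 h libraries (log2 change 1.27, SE 0.14, edgeR adjusted p = 0.000371). Cyp2b10, Ces1d, Akr1c14, Pigr, Sema5a and Nbl1 no longer passed without 24 h withdrawal 1 (edgeR adjusted p of 0.0523 to 0.294). Ces1d, Akr1c14, Pigr, Sema5a and Nbl1 lost the call without 24 h withdrawal 3 (edgeR adjusted p of 0.0812 to 0.15). Sema5a missed the threshold without FZD5 agonist 1 (edgeR adjusted p = 0.0523). Sema5a did not pass without FZD5 agonist 3 (edgeR adjusted p = 0.0505). Cd177 passed with any 1 of the 5 libraries left out.

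The steepest falls were in genes of varied function. Frrs1, a ferric reductase (plus strand of chromosome 3, 116859464 to 116908177), was at 4.97, 7.81 and 6.96 CPM with the FZD5 agonist, against 24.3, 45.4 and 27.7 CPM in the 24 h libraries. The highest agonist library was below the lowest 24 h library, and 24 h withdrawal 2 was the highest of all (log2 change -1.96, SE 0.20, edgeR adjusted p = 0.00019). S100a6, a calcium-binding protein, was at 4.56, 3.72 and 5.74 CPM, against 17.03, 98.1 and 11.9 CPM after 24 h, with the same order (log2 change -1.61, SE 0.22, edgeR adjusted p = 0.00147). Ly6a, the stem cell antigen Sca-1, was at 7.23, 6.91 and 6.33 CPM, against 24.7, 27.3 and 16.1 CPM after 24 h, and its relative Ly6c1, which also marks endothelium, at 20.1, 23.2 and 27.5 CPM, against 58.6, 48.7 and 45.3 CPM after 24 h. Neither overlapped (log2 change -1.56, SE 0.22, edgeR adjusted p = 0.00126, and -1.12, SE 0.13, edgeR adjusted p = 0.000324), with reads possibly shared among Ly6 genes. Ripk3, the kinase of necroptosis, was at 11.8, 14.9 and 16.5 CPM, against 29.4, 43.6 and 32.6 CPM after 24 h, and 24 h withdrawal 2 again lay with its group (log2 change -1.08, SE 0.14, edgeR adjusted p = 0.000611).

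Padi2, which converts arginine to citrulline in proteins, was at 4.97, 5.88 and 6.35 CPM with the FZD5 agonist, against 15.5, 4.83 and 24.8 CPM in the 24 h libraries. The groups overlapped through 24 h withdrawal 2 alone (log2 change -1.79, SE 0.17, edgeR adjusted p = 8.70e-05). The serine protease Htra4 was at 2.18, 2.41 and 2.71 CPM, against 6.04, 0 and 11.7 CPM after 24 h, with no count in 24 h withdrawal 2 (log2 change -1.84, SE 0.30, edgeR adjusted p = 0.00794). Ptprn, a protein of secretory granules, was at 12.03, 25.97 and 31.2 CPM, against 68.7, 386 and 55.4 CPM after 24 h, with 24 h withdrawal 2 at several times the other 5 (log2 change -1.41, SE 0.32, edgeR adjusted p = 0.044). Atp5g1, a subunit of the mitochondrial ATP synthase with processed copies in the genome, fell to 7.45, 6.55 and 8.59 CPM, against 14.6, 51.3 and 15.2 CPM after 24 h (log2 change -0.97, SE 0.14, edgeR adjusted p = 0.00121). Gcnt4, Tpm2 and Ccdc88b fell by 1.62, 1.04 and 1.02 on the log2 scale (edgeR adjusted p = 0.0337, 0.0285 and 0.05). For Gcnt4 and Tpm2 the groups overlapped through 24 h withdrawal 2, at 0 and 7.61 CPM. Ptprn, Gcnt4, Tpm2 and Ccdc88b no longer passed without 24 h withdrawal 1 (edgeR adjusted p of 0.113 to 0.342). Ptprn, Gcnt4 and Ccdc88b lost the call without 24 h withdrawal 3 (edgeR adjusted p of 0.086 to 0.153). Tpm2 and Ccdc88b missed the threshold without FZD5 agonist 1 (edgeR adjusted p of 0.0745 to 0.0769). Ptprn and Tpm2 did not pass without FZD5 agonist 2 (edgeR adjusted p of 0.0603 to 0.0699). Ccdc88b had no call without FZD5 agonist 3 (edgeR adjusted p = 0.083). Frrs1, S100a6, Ly6a, Ly6c1, Ripk3, Padi2, Htra4 and Atp5g1 passed with any 1 of the 5 libraries left out of the 14-library fit. Of these, Atp5g1 did not pass in the 5-library fit (edgeR adjusted p = 0.0527).

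Mitochondrially encoded genes gave opposite answers with and without 24 h withdrawal 2. Without it 3 of 11 tested rose, against 2.37% of all genes, and 10 had fitted values above 0, with a median of 0.49. With it all 11 were fitted below 0, with a median of -2.32 and no call. mt-Nd4, a subunit of complex I, was at 336, 283 and 322 CPM with the FZD5 agonist, against 205, 5131 and 205 CPM in the 24 h libraries. The agonist libraries stood between the 24 h pair at 205 CPM and the single library at 5131 CPM (log2 change 0.63, SE 0.13, edgeR adjusted p = 0.0188). The nuclear RNA Malat1 was also highest in 24 h withdrawal 2. It was at 1828, 1456 and 1169 CPM with the FZD5 agonist, against 1167, 40418 and 1409.6 CPM after 24 h. It did not pass in either fit (edgeR adjusted p = 0.699 without 24 h withdrawal 2 and 0.214 with it). The 24 tested genes of cytosolic ribosomal proteins were all fitted below 0 without 24 h withdrawal 2, with a median of -0.22 and no call. mt-Nd4 no longer passed without 24 h withdrawal 1 (edgeR adjusted p = 0.155). mt-Nd4 lost the call without 24 h withdrawal 3 (edgeR adjusted p = 0.0955). mt-Nd4 missed the threshold without FZD5 agonist 1 (edgeR adjusted p = 0.0586).

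Levels in the other groups of the series are set beside these as values only, since no comparison with those groups was tested here. For several genes the cells given Wnt and those 48 h after CHIR removal were on the agonist side of the 24 h level. Cxcl5 was at 366, 348 and 337 CPM with Wnt and 288, 326 and 297 CPM after 48 h. Itih4 was at 117, 138 and 150.2 CPM with Wnt and 127, 82.1 and 112 CPM after 48 h, above the agonist libraries in all but 1 case. Chil1 was at 16799, 17163 and 17251 CPM with Wnt and 17784, 18108 and 17330.2 CPM after 48 h, above every agonist library. Asns was at 67.1, 68.8 and 60.9 CPM with Wnt and 69.2, 61.2 and 63.2 CPM after 48 h, below every agonist library.

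Other genes did not follow that order. Frrs1 was at 27.1, 33.9 and 38.7 CPM with Wnt and 31.4, 21.98 and 31.5 CPM after 48 h, far above the agonist libraries and near 24 h withdrawal 1 and 3. Sema5a was at 0.9601, 0.451 and 1.26 CPM with Wnt and 0.996, 1.93 and 0.697 CPM after 48 h, below all agonist libraries and 24 h withdrawal 1 and 3. Axin2 was at 0.384, 0.373 and 0.238 CPM with Wnt and 0.413, 0.771 and 0.167 CPM after 48 h, so these 6 libraries lay below both 24 h withdrawal 1 and 3 and the agonist. With CHIR it was at 2.38, 9.43 and 1.55 CPM, where CHIR 2 alone was above the agonist libraries. Klf6 was at 78.9, 93.1 and 80.9 CPM with Wnt and 96.2, 96.9 and 84.9 CPM after 48 h, below every agonist library.

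The libraries FZD6 agonist 2 and 3 had levels close to those of FZD5 agonist 2 and 3. Frrs1 was at 7.58 and 7.54 CPM and Itih4 at 68.9 and 65.9 CPM in the 2 FZD6 libraries. Axin2 was there at 2.898 and 2.12 CPM, Klf6 at 137 and 139 CPM and Asns at 124 and 118 CPM. FZD6 agonist 1, one of the libraries that stood apart, was at 34.4 CPM for Frrs1 and 24.3 CPM for Itih4.

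**Figure D4:**
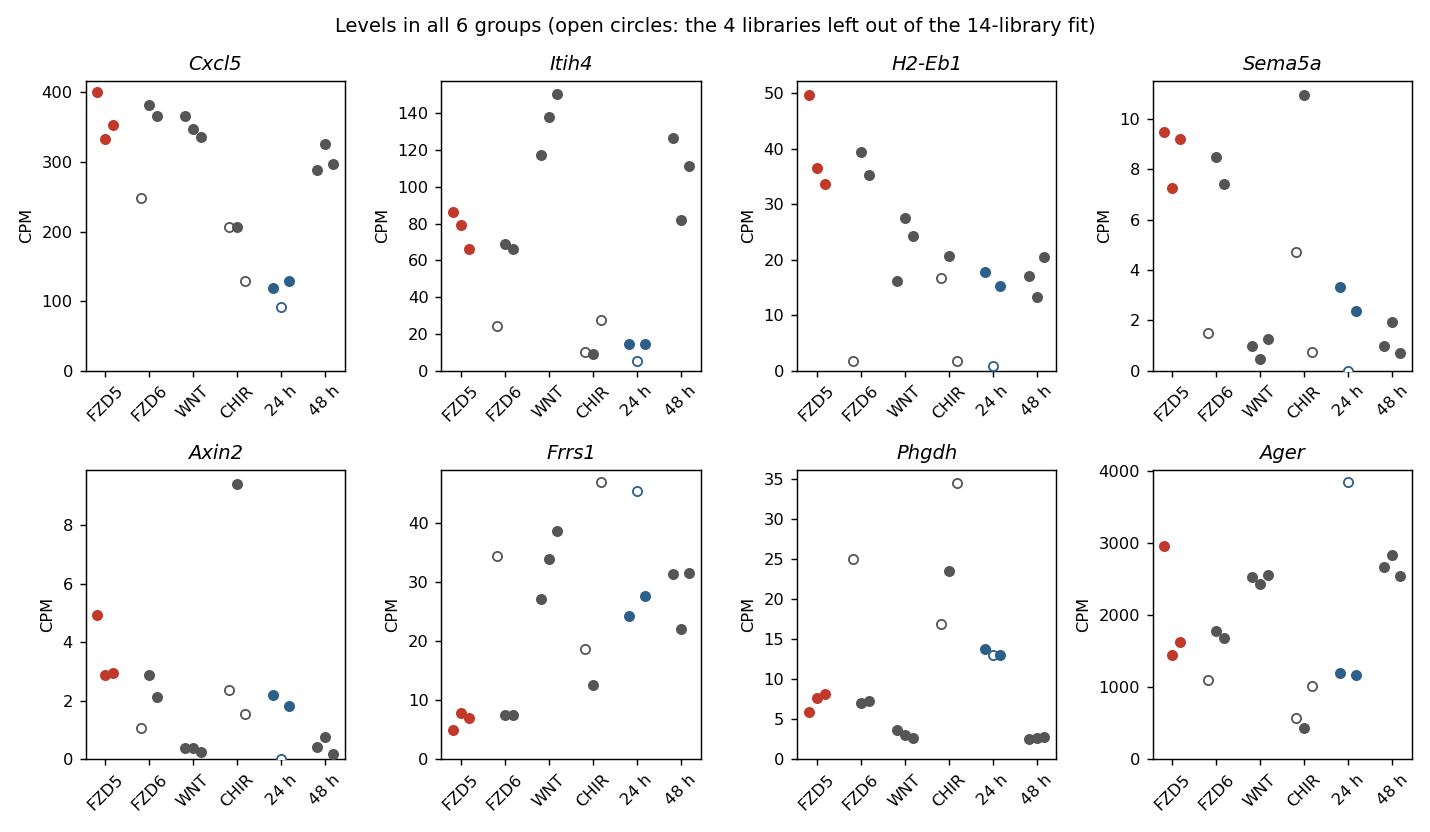
CPM of 8 genes (vertical axes, linear from 0) in all 18 libraries by group, with the FZD5 agonist in red, 24 h withdrawal in blue and the other groups in grey, 1 point per library. Open circles are the 4 libraries left out of the 14-library fit. Frrs1 was at 4.97 to 7.81 CPM with the FZD5 agonist and at least 21.98 CPM with Wnt and after 24 h and 48 h, while Itih4 was highest with Wnt and after 48 h.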

How the data were processed

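Libraries were made from 0.1 µg of total RNA with the TruSeq Stranded kit, per the labels' protocols. The deposited gene counts, raw and not normalised, were made by the authors with GSNAP on GRCm38, per the submitters' processing notes. How reads were counted, and whether by strand, is not given in the sources used here, so genes that overlap, run antisense or have near-identical copies (Lyz1 with Lyz2, for example) are uncertain. The deposited RPKM values and gene widths, made by the authors, served only to recover each library's read total. Of 52636 gene identifiers 52489 (99.7%) matched GENCODE M21.

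Libraries were grouped by their labels. Counts were filtered with filterByExpr by group, scaled by TMM and tested with edgeR 4.0.16 (glmQLFit, robust; glmQLFTest) in R 4.3.3, as FZD5 agonist over 24 h withdrawal, and called at a Benjamini-Hochberg adjusted p under 0.05. The 18-library fit holds all groups. The 14-library fit leaves out 24 h withdrawal 2, CHIR 1, CHIR 3 and FZD6 agonist 1. CPM use the TMM sizes of the 18-library fit in all sentences, and SE is the log2 fold change over the square root of F. Total counts of 31509607 to 47353597 put 3 counts at 0.0634 to 0.0952 CPM in the 6 libraries. No replicate pair was as alike as sampling noise alone would make it (chi-square over degrees of freedom at least 25.4). The test was checked on simulated counts without an outlying library, which cannot show how such libraries affect the calls. Alternatives were DESeq2 1.42.0, limma 3.58.1 voom with quality weights, other scaling, filters, thresholds and library sets.

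The comparison, the gene lists and the rules for naming were chosen with earlier results of these data known. Named were the 12 highest and 12 lowest called fold changes at an average log2 CPM of at least 2 without overlap, up to 3 called members per list by p (6 for Wnt targets, type 1 and type 2 markers), and a fixed set (Axin2, Lgr5, Nkd1, Rnf43, Notum, Fzd5, Fzd6, Sftpc, Hopx, Ager, Scgb1a1, Mki67, Xist and Malat1). Named outside this rule, after values were seen, were Cd177, Wnt3a, Cxcl2, Nfkbia, Nfkbiz, Tnfaip3, Birc3, Nfkb2, Asns, Psat1, H2-DMa, H2-DMb1, H2-K1, H2-D1, Ptprc, Csf1r, Marco, Hspa5, Manf, Lbp, Cp, Cav1, Rtkn2, Aqp5 and Pmvk. Some genes that met these rules are not reported here.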

Additional observations from a re-analysis of the deposited data

How the results depend on the processing

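With all 3 libraries on each side, the count of 1 called gene became 152 with DESeq2, 326 with limma voom with quality weights and 2 when 3 libraries had to reach 1 CPM. It became 0 with upper-quartile factors, in a fit of only the 2 groups, at an adjusted p under 0.01 and in the test against a fold of 1.5. Leaving out each library in turn gave 0 to 1139 calls. Without 24 h withdrawal 2, the 738 calls became 1305 with DESeq2, 452 with voom, 1450 with no filter, 172 at an adjusted p under 0.01, 15 against a fold of 1.5, 37 with only the 2 groups and 3 with 17 libraries. Leaving out each library in turn gave 94 to 841. RLE factors (771), upper-quartile factors (820), the 1 CPM filter (864) and leaving out mitochondrial, ribosomal and nuclear RNA genes (732) moved it by less. The cause of these differences was not tested.

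Deviations of same-numbered libraries from their group means correlated at -0.098, -0.099 and -0.049. The 24 h mean includes 24 h withdrawal 2, which stood apart, so these values cannot decide whether replicate numbers pair the samples. With the replicate number as a block 0 genes were called with all libraries and 394 without 24 h withdrawal 2, 246 of them higher.

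Of the genes called without 24 h withdrawal 2, Wnt4, Dvl2, Tle2, Hp, mt-Nd4, Nfkb2, Hspa5 and Cp had fold changes of the opposite sign, and no call, in the 18-library fit (log2 -0.91, -0.29, -1.22, -2.78, -2.56, -0.05, 0.10 and -1.78). Values of other named genes that turned sign were of genes that did not pass. Ager with all libraries (-0.04) became 0.55 with voom, 0.063 with no filter and 0.031 with the replicate block. It ran from -0.42 to 0.77 as each library was left out, with 0.77, 0.15 and 0.11 without 24 h withdrawal 2, FZD5 agonist 2 or FZD5 agonist 3. Without 24 h withdrawal 2, Notum became -0.024 with voom. With each library left out in turn Notum ran from -0.44 (without FZD5 agonist 1) to 1.43, Scgb1a1 from -1.61 to 0.92 (without 24 h withdrawal 1) and Mki67 from -0.057 (without 24 h withdrawal 1) to 0.42.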
